A study of Mus musculus with 40 samples.

Results

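The 10 genes described here belong to bone morphogenetic protein (BMP) signaling and its best known targets, and each was found by its symbol among the 12573 genes of the deposited table: the ligands Bmp4 and Bmp6, the receptors Bmpr1a and Bmpr2, the signal carriers Smad1 and Smad5, the inhibitor Smad6, and the target genes Id1, Id2 and Id3. RNA from the gastrocnemius, a calf muscle, was sequenced in 40 female C57BL6/J mice that formed 5 groups of 8. The PBS mice, the controls, received saline at 8 weeks of age and were taken at 12 weeks. The other mice received Lewis lung carcinoma (LLC) cells, a transplantable mouse tumor line, at 8 weeks, and were taken after 1 week at 9 weeks of age (1wk), after 2 weeks at 10 weeks of age (2wk), or after 3 to 4 weeks at 11 to 12 weeks of age. The last mice were divided by tumor mass into LT (1.2 g or less) and HT (2 g or more), so PBS mice were older than the 1wk and 2wk mice they were set against. All mice shared sex, strain and muscle, no tumor-free mice of 9 or 10 weeks were analysed here, and age and tumor cannot be told apart in the 1wk and 2wk comparisons. The paper regrouped mice taken at 3 and at 4 weeks by tumor mass, and the labels do not give the week of each mouse. Age and time since injection therefore cannot be separated from tumor mass between HT and LT mice. Nor can age be fully separated from tumor where LT and HT mice were set against PBS mice.

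BMP ligands bind a complex of type I and type II receptors, which phosphorylates Smad1 and Smad5. These join Smad4, enter the nucleus and switch on genes that include Id1, Id2, Id3 and Smad6, and Smad6 feeds back to hold the pathway in check. The Id proteins are helix-loop-helix proteins without a DNA-binding region, which pair with E proteins and so keep the myogenic factors from them. In skeletal muscle the pathway is known for maintaining fibre mass and for its activity in satellite cells and blood vessel endothelium.

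All values below are the deposited normalized signal of each gene, which has no absolute unit. A fitted difference is the difference between 2 group means of log2(value + 1), so 1 unit is a doubling, and folds of low genes are understated on this scale. It was tested with limma over all 12573 genes in 1 fit of the 5 groups, with Benjamini-Hochberg adjustment, and a gene is said to have risen or fallen where its adjusted p was under 0.05. The steps between low values put the depth at 19.3 to 28.7 M reads in PBS libraries and 15.7 to 26.7 M over 1wk and 2wk libraries, but at 3.49 to 7.24 M in LT and 4.15 to 7.76 M in HT libraries. Depth therefore moved with the LT and HT groups against PBS, but not between HT and LT. All 10 listed muscle fibre markers had values in all libraries. The deposited values hold 0 zeros for any gene, so the absence of zeros does not tell whether a marker was expressed. Listed markers missing from the deposited genes, among them all 8 of lymphocytes, could not be judged.

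The promoters of the target genes Smad6, Id3 and Id2 are shown because these genes were called in none of the 5 comparisons below, while ligands and Smads were, and those of the ligands because Bmp4 and Bmp6 changed in opposite directions in HT mice. RefSeq windows (build GRCm38.p6) were matched for 9 of the 10 genes, all but Id1, and each is given from 250 bases before to 10 bases after a start site, on the strand of the gene. Capitals mark 3 motifs bound by Smads, searched on both strands: the palindrome GTCTAGAC, the GC-rich BMP element GGCGCC, and the Smad box GTCTG, which reads CAGAC on the other strand.
Smad6, chr9:64022050-64022309, minus strand: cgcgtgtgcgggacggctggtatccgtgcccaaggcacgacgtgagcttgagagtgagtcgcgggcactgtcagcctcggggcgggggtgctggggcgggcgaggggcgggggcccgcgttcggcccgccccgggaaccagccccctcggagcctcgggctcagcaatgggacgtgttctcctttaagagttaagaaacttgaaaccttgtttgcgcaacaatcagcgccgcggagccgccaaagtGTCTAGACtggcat
Id3, chr4:136143572-136143831, plus strand: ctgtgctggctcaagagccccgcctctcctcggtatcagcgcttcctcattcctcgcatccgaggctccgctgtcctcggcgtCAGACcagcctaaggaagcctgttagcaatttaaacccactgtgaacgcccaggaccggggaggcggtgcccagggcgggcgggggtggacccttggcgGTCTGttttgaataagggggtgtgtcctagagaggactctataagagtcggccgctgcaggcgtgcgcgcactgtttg
Id2, chr12:25096083-25096342, minus strand: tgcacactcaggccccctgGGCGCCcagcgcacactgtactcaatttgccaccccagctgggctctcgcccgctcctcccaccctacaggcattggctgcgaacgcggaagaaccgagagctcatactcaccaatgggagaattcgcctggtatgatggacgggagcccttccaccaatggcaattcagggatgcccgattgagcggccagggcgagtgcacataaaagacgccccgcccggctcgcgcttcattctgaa
Bmp4, chr14:46390660-46390919, minus strand: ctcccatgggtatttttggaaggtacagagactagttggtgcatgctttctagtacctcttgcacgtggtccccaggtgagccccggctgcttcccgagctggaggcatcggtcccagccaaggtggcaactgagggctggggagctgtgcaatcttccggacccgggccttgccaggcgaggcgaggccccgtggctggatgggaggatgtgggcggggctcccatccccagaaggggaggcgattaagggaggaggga
Bmp6, chr13:38345466-38345725, plus strand: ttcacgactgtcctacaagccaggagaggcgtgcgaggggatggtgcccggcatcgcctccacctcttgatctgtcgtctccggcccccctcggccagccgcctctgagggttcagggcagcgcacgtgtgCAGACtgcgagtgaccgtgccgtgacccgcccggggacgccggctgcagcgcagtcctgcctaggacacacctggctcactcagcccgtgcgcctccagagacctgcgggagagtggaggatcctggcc
The Smad6 window holds the palindrome, which begins 4 bases before the start and is present in 0.177% of the 32851 windows of this length. The Id3 window holds the Smad box at 167 and 68 bases before the start, and the Bmp6 window holds it at 119 bases before, but 44.03% of all windows have this short motif. The Id2 window holds GGCGCC at 231 bases before the start, as do 9.96% of all windows, among them windows of Bmpr1a, Bmpr2 and Smad5. The Bmp4 window has none of the 3 motifs. A match describes the letters and does not show binding.

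Bmp4 encodes a secreted ligand with roles in embryonic patterning, bone and vessel formation, and its gene lies at chr14:46620982-46628126 on the minus strand (mm39, as for all gene positions that follow). Its value was 63.8 at the lowest, 97.2 at the median and 117 at the highest in HT mice, against 48.2, 66.4 and 77.4 in PBS mice. In LT mice it was 68.6, 102 and 145 at the lowest, the median and the highest. The groups overlapped, but 6 of 8 HT mice and 6 of 8 LT mice lay above every PBS mouse. Bmp4 rose by 0.54 ± 0.14 (SE) on the log2 scale in HT mice (adjusted p = 0.00267, limma, 95% interval 0.27 to 0.82). It rose by 0.61 ± 0.14 in LT mice (adjusted p = 0.0192, limma). The 1wk mice ran from 71.7 through a median of 97.6 to 109, and the 2wk mice from 74.8 through 86.5 to 109. In both groups 7 of 8 mice lay above every PBS mouse, and neither difference passed the test. The fitted difference was 0.53 at 1wk (adjusted p = 0.0677, limma) and 0.46 at 2wk (adjusted p = 0.352, limma). The 4 comparisons share the same 8 PBS mice, so they are not independent of each other. In order of mean level the groups ran LT 100.2, HT 94.5, 1wk 93.0, 2wk 88.0 and PBS 64.3, and no neighbours in this order differed in the test.

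Thinning all libraries to the depth of the shallowest ended the Bmp4 call in HT mice (0.34, adjusted p = 0.144, limma) and in LT mice (0.42, adjusted p = 0.403). In LT mice the call also ended without PBS mouse C2 (adjusted p = 0.0563), without PBS mouse C5 (adjusted p = 0.0748) and without LT mouse C56 (adjusted p = 0.0678), all from limma.

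Bmp6 encodes a ligand best known from the liver, where it sets hepcidin and so iron uptake, and lies at chr13:38529692-38684290 on the plus strand. It was the only member that fell, and of the 4 groups set against PBS mice it was called in HT mice. Its value was 58.3, 79.4 and 115 (lowest, median and highest) in HT mice, against 99.1, 116 and 226 in PBS mice. All 8 HT mice lay below the PBS mean of 135.5, and 6 of 8 lay below every PBS mouse. The fitted difference between HT and PBS mice was -0.68 ± 0.19 (adjusted p = 0.00568, limma, 95% interval -1.06 to -0.30). LT libraries were as shallow as HT libraries, and their Bmp6 values were higher, at 83.9, 145 and 239. Between HT and LT mice the fitted difference was -0.89 ± 0.19 (adjusted p = 0.00138, limma), which is also the test of whether HT and LT mice differed from PBS mice to the same degree. All 8 HT mice were below the LT mean of 159.2, and 5 of 8 were below every LT mouse. Bmp6 was also lower in HT mice than in 1wk mice (-0.85, adjusted p = 0.00106) and 2wk mice (-0.73, adjusted p = 0.00421), both from limma. HT was thus last in the order of mean levels, after LT 159.2, 1wk 151.1, 2wk 139.3 and PBS 135.5. No neighbours among these 4 groups differed in the test.

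With libraries thinned to the shallowest, Bmp6 did not pass between HT and PBS mice (-0.47, adjusted p = 0.144, limma), and between HT and LT mice it did (-0.89, adjusted p = 0.0102). The table places 44 bases of Txndc5, on the opposite strand, over Bmp6, and no source used here states whether the counting used strand. Txndc5 was -0.38 between HT and PBS mice (adjusted p = 0.000790) and -0.09 between HT and LT mice (adjusted p = 0.491, limma).

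**Figure D1:**
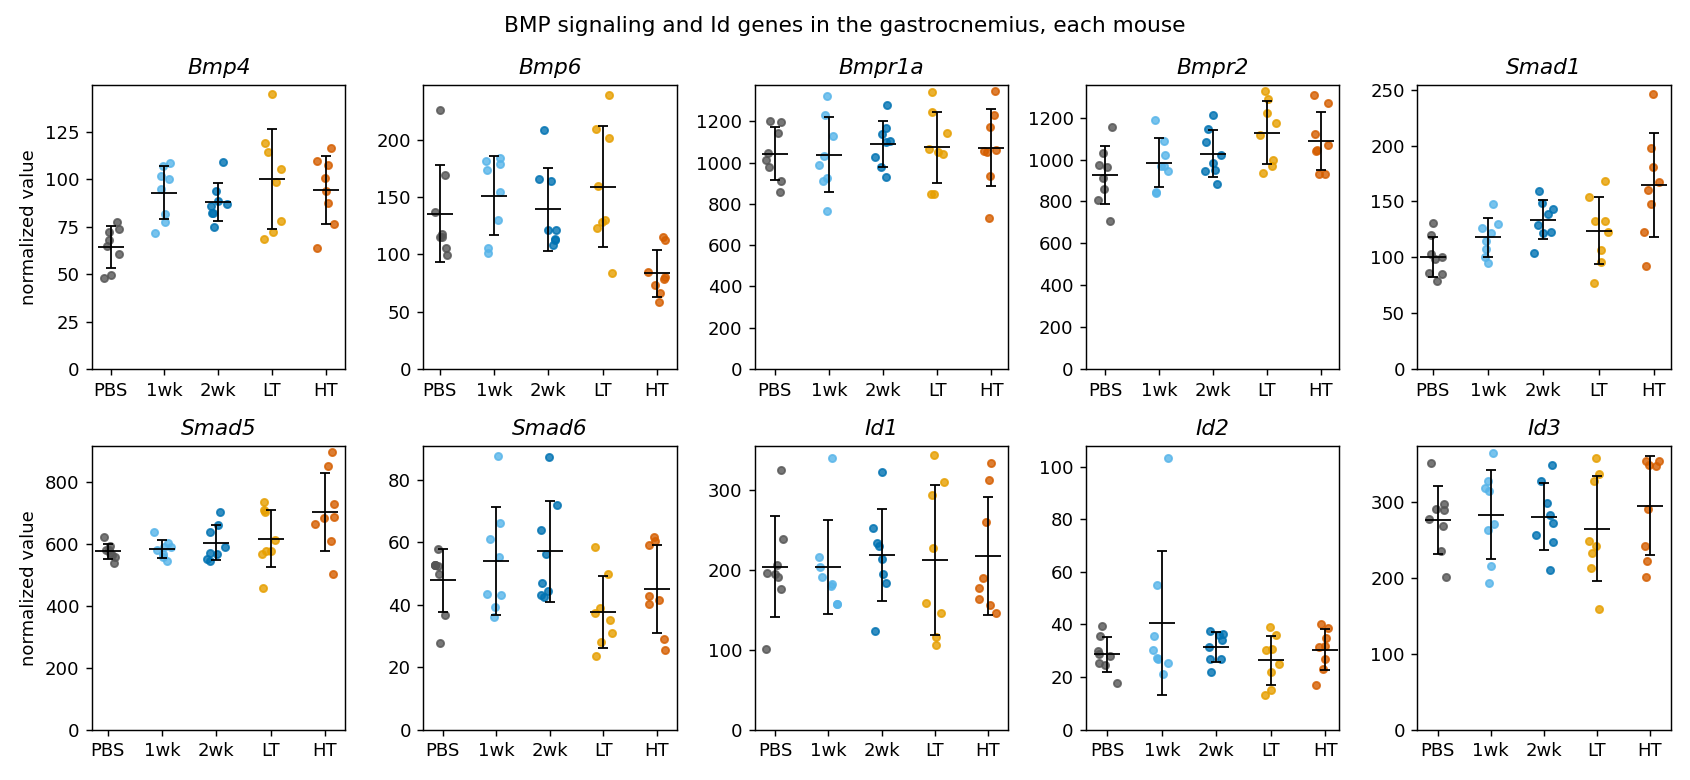
Normalized value of each of the 10 genes (vertical axis, from 0) in each mouse (points), by group along the horizontal axis, with the mean and SD (bars) of 8 mice. Bmp4 was lowest in PBS mice (mean 64.3), Bmp6 in HT mice (mean 83.5), and Smad1 was highest in HT mice (mean 164), while the 5 groups of Id1, Id2 and Id3 overlapped throughout.

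Of the receptors, Bmpr2 encodes the type II receptor that starts the complex's signal, mutated in heritable pulmonary arterial hypertension, and lies at chr1:59803438-59917240 on the plus strand. Its value ran from 933 through a median of 1057 to 1309 in HT mice, against 707, 938 and 1156 in PBS mice. All 8 HT mice were above the PBS mean of 926, although only 2 were above every PBS mouse. Bmpr2 rose by 0.24 ± 0.09 in HT mice (adjusted p = 0.0427, limma), close to the threshold. The fitted difference in LT mice was 0.29, with 8 of 8 mice above the PBS mean, and did not pass (adjusted p = 0.162, limma). The call in HT mice ended when any of 8 single libraries was left out (PBS mice C5, C8, C9 and C10, and HT mice C38, C46, C54 and C62), with adjusted p from 0.0527 to 0.121 (limma).

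Bmpr1a, at chr14:34133025-34224503 on the minus strand, encodes a type I receptor (ALK3) that phosphorylates the Smads. Of the 10 genes it had the smallest ratio between its highest and lowest group mean, with means between 1038 in 1wk mice and 1092 in 2wk mice. In HT mice it ran from 732 through 1059 to 1346, against 859, 1030 and 1201 in PBS mice, so that the groups covered each other. The fitted difference between HT and PBS mice was 0.03, with a 95% interval of -0.19 to 0.25 (adjusted p = 0.863, limma).

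Smad1 and Smad5 encode the receptor-activated Smads of the BMP branch. Smad1, at chr8:80065026-80126057 on the minus strand, had the largest fitted rise of the 10 genes in HT mice. Its value was 92.0, 164 and 246 (lowest, median and highest) in HT mice, against 78.5, 99.2 and 131 in PBS mice. Of the HT mice 6 of 8 lay above every PBS mouse, and HT mouse C60 was the lowest at 92.0, below the PBS mean. Smad1 rose by 0.67 ± 0.15 (adjusted p = 0.000819, limma, 95% interval 0.37 to 0.98), and its adjusted p stayed between 8.69e-05 and 0.00318 when each of the 40 libraries was left out in turn. In LT mice it ran from 77.1 through 128 to 169. The fitted difference between HT and LT mice was 0.39 and did not pass (adjusted p = 0.0553, limma). Without HT mouse C60 that difference was 0.50 and passed (adjusted p = 0.0101), and it also passed without HT mouse C46, LT mouse C39 or LT mouse C56 (adjusted p from 0.0290 to 0.0375, limma). The mean order was HT 164, 2wk 133, LT 124, 1wk 118 and PBS 100.3, with no neighbours differing in the test.

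Smad5, at chr13:56850823-56890191 on the plus strand, differed from Smad1 in the size of its change. Its value was 503, 684 and 895 in HT mice, against 536, 575 and 620 in PBS mice. The coefficient of variation was 17.9% in HT and 15.1% in LT mice, against 4.34% in PBS, 4.87% in 1wk and 9.50% in 2wk mice. Smad5 rose by 0.27 ± 0.09 in HT mice (adjusted p = 0.0169, limma), with 6 of 8 mice above every PBS mouse and 1 mouse, C60, below every PBS mouse. The call ended without HT mouse C54 (adjusted p = 0.0520) or C55 (adjusted p = 0.0559), and it ended without C48, C54 and C55 together (0.17, adjusted p = 0.175), all from limma. These 3 libraries had weights of 0.42, 0.15 and 0.10 when limma weighted each library by its agreement with its group, against 0.73 to 0.94 for the other HT libraries.

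Smad6, at chr9:63860358-63929341 on the minus strand, encodes the inhibitory Smad that competes with the receptor-activated Smads. It did not follow Smad1 and Smad5: HT mice had 25.5, 42.2 and 61.7, against 27.8, 52.6 and 57.7 in PBS mice. The fitted difference was -0.12, with a 95% interval of -0.52 to 0.29 (adjusted p = 0.688, limma). LT mice had the lowest mean, 37.8 ± 11.5 (SD, n = 8), and were not called against PBS mice, at 47.9 ± 10.1 (-0.35, adjusted p = 0.487, limma). These values rested on an estimated median of 18.5 reads per HT library and 14.5 per LT library, against 81.0 per PBS library.

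Id1, Id2 and Id3, the target genes most often read as a measure of BMP activity, did not pass in any of the 5 comparisons, and 0 of their 15 tests had an unadjusted p under 0.05. Id1, at chr2:152578171-152579330 on the plus strand, had 146, 183 and 334 in HT mice, against 100.4, 196 and 326 in PBS mice. Its fitted difference was 0.09, and its 95% interval of -0.37 to 0.55 covers a fold of 0.772 to 1.46 (adjusted p = 0.796, limma). Id1 was the most variable of the members within HT and LT mice, with a coefficient of variation of 34.1% and 44.1%. The 5 group means lay between 204 and 219.

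Id3, at chr4:135871133-135872703 on the plus strand, had 200.2, 318 and 354 in HT mice, against 200.8, 283 and 351 in PBS mice. The ranges were nearly the same, and 2 HT mice lay above every PBS mouse and 1 below. The fitted difference was 0.08, with a 95% interval of -0.22 to 0.38 and a fold of 0.856 to 1.30 (adjusted p = 0.720, limma).

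Id2, at chr12:25143798-25146091 on the minus strand, had 16.9, 31.4 and 40.1 in HT mice, against 17.6, 28.3 and 39.2 in PBS mice. Its fitted difference was 0.07, with a 95% interval of -0.41 to 0.55 (adjusted p = 0.843, limma). The estimated median was 14.5 reads behind an HT value, against 44.5 behind a PBS value. In the 1wk group 7 mice had 21.2 to 55.1, and mouse C17 had 103. The same mouse had the highest summed level of the 12 macrophage markers in its group, 12249, against 1775 for the lowest 1wk library. It was also highest for the 4 measured neutrophil markers (335 against 23.4), the 10 fibroblast markers (22933 against 10149) and the 5 measured satellite cell markers (1031 against 746). Its muscle fibre markers were the lowest of the group, with a mean log2 difference of -0.88 from the PBS means. The part of these cells in its Id2 value was not tested.

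**Figure D2:**
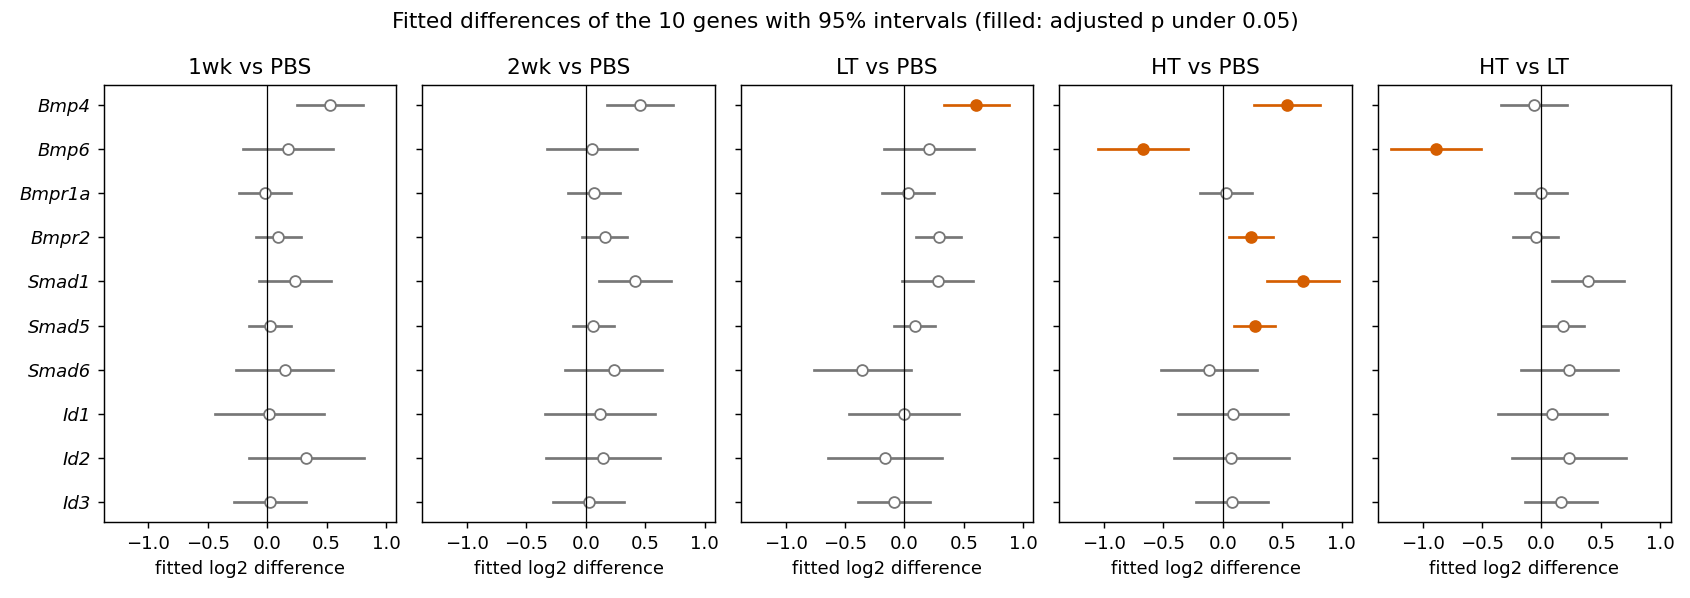
Fitted log2 difference (horizontal axis) of each of the 10 genes (rows) in each of the 5 comparisons (panels), with its 95% interval as a line and filled orange points where the adjusted p was under 0.05. In HT vs PBS 5 points are filled, of which Bmp6 at -0.68 is the only one below 0, and the intervals of Id1, Id2, Id3 and Smad6 cross 0 in all 5 panels.

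Between HT and PBS mice 4 of the 10 genes rose and 1 fell, and the median fitted difference of the 10 was 0.08, against 0.00 over all genes. Of all 12573 genes, 32.9% were called in that comparison, 16.5% as higher and 16.5% as lower. Between LT and PBS mice 1 of 10 was called, Bmp4, where 0.636% of all genes were called and 0.247% were higher. Between HT and LT mice 1 of 10 was called, Bmp6, where 20.4% of all genes were called, 9.94% as higher and 10.5% as lower. At 1wk 0 of 10 were called by limma, where 0.525% of all genes were, and 1 member, Bmp4, had an unadjusted p under 0.05. At 2wk 0 of 10 were called by limma, where 0.0795% of all genes were, and 2 members, Bmp4 and Smad1, had an unadjusted p under 0.05. When libraries were weighted, limma called both of these at 2wk (adjusted p = 0.00439 and 0.0160) and Bmp4 at 1wk (adjusted p = 0.00214), a setting in which it called 1.92% of all genes at 2wk and 5.80% at 1wk. Smad1 and Smad5 were also higher in HT mice than in 1wk mice (adjusted p = 0.0247 and 0.0302, limma).

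Endothelial markers had their largest median difference from PBS mice in HT mice, and a smaller one in each other tumor group. Of the 16 listed, 10 rose and 0 fell in HT mice, Pecam1, Cdh5 and Tek among them, where 16.5% of all genes rose. Their median fitted difference was 0.43 in HT, 0.25 in LT, 0.30 in 2wk and 0.23 in 1wk mice. In LT mice 1 marker was called, Pecam1, and in 2wk and 1wk mice 0 were. Their summed level was 6113 to 7882 in HT mice, against 4342 to 7475 in PBS mice. Their mean log2 difference from the PBS means was 0.27 to 0.60 in HT mice, against -0.21 to 0.43 in PBS mice. It moved with the groups, so a call lost with it as covariate cannot separate group from these markers. With their mean as a covariate none of the 4 risers passed, and 14.9% of all genes were called. Their fitted differences were then 0.33 for Bmpr2, larger than the 0.24 without it (adjusted p = 0.0529, limma), 0.33 for Bmp4 (adjusted p = 0.195), 0.30 for Smad1 (adjusted p = 0.239) and 0.11 for Smad5 (adjusted p = 0.506). Bmp6 still fell with the covariate, both against PBS mice and against LT mice (-1.23, adjusted p = 0.000187, and -1.196, adjusted p = 0.000128, limma). All 4 measured neutrophil markers, all 5 measured erythroid markers and 4 of 12 macrophage markers also rose in HT mice, as did 2 of 5 adipocyte markers. Of the 10 muscle fibre markers, Mylpf (-0.67, adjusted p = 0.000462) and Mb (-0.88, adjusted p = 0.0273, limma) fell. Of the 10 fibroblast markers, Dpt (-0.55, adjusted p = 0.0252) and Lum (-0.65, adjusted p = 0.0445, limma) fell. Of the 8 smooth muscle and pericyte markers, Notch3 fell (-0.44, adjusted p = 0.0182, limma), where the median fitted difference of the list was 0.03. In these lists 0 markers rose. Of all genes, 16.5% were called as lower and 16.5% as higher. The mean log2 difference of the fibre markers from the PBS means was -0.88 in C48, -0.84 in C54 and -0.94 in C55, -0.21 to 0.12 in the other HT mice and -0.62 to 0.41 in PBS mice. That of the fibroblast markers was -1.61 in C54 and -1.62 in C55, against -0.38 to 0.52 in PBS mice. The part of these cells in the members' differences was not tested. Fewer cells of a type and less RNA per cell cannot be told apart in RNA of whole muscle.

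Among mice of 1 group, Id1 and Id3 varied together. Pearson's r of their log2 values was 0.93 for PBS, 0.67 for 1wk, 0.85 for 2wk, 0.83 for LT and 0.67 for HT (8 mice each). Spearman's rho was 0.67 for PBS, 0.81 for 1wk, 0.79 for 2wk, 0.76 for LT and 0.60 for HT. Of the 30 relations tested over the 6 pairs of Id1, Id2, Id3 and Smad6 in 5 groups, 0 passed adjustment by exact permutation of the pairings. The smallest unadjusted p was 0.00340 for Id1 and Id3 in PBS mice (exact permutation, n = 8, two-sided), which became 0.102 after adjustment, and the p of their Spearman's rho there was 0.0831 (exact permutation, adjusted p = 0.499). Without the 2 mice farthest from the median of Id1, r was 0.54 for PBS, 0.32 for 1wk, 0.35 for 2wk, 0.69 for LT and 0.55 for HT. For Smad6, r with Id1 ran from -0.38 to 0.44 over the 5 groups, and was positive in 2 of them. Its r with Id3 ran from -0.36 to 0.60, positive in 3 groups, and with Id2 from -0.45 to 0.13, positive in 2. Id2 and Id1 had r from 0.02 to 0.39, and Id2 and Id3 from -0.15 to 0.53, positive in 4 groups. Smad6 and Id2 rested on estimated medians of 10.5 to 18.5 reads per library in LT and HT mice.

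**Figure D3:**
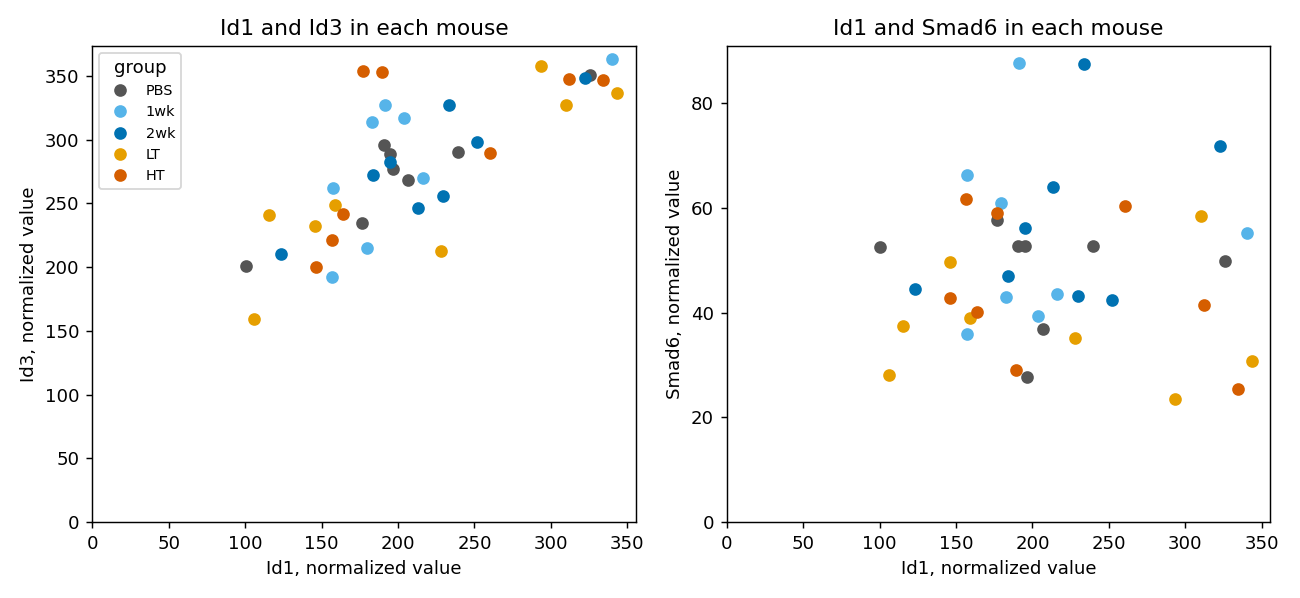
Normalized value of Id3 (left) and of Smad6 (right) on the vertical axis against that of Id1 on the horizontal axis, 1 point per mouse, colored by group, all axes from 0. Id3 was high where Id1 was high within each group (r from 0.67 to 0.93), and Smad6 showed no such order (r from -0.38 to 0.44).

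Over all 40 mice, the gene outside the 10 whose log2 values were most like those of Id1 was Klf4, with r = 0.85. The next were Klf2 (r = 0.76) and Apold1 (r = 0.66). Klf4 was also the closest to Id3 (r = 0.72), ahead of Tbx3 (r = 0.70) and Nedd9 (r = 0.70). Deviations from group means gave r of 0.87 for Klf4 and Id1 and 0.77 for Klf4 and Id3, over the same 40 mice that chose it. Klf2 and Klf4 are known as transcription factors of vessel endothelium under blood flow. Id2 was most like Dpysl3 (r = 0.77), Ahnak2 (r = 0.75) and Sirpa (r = 0.75), a pattern that includes the high 1wk mouse, and Spearman's rho was 0.59, 0.61 and 0.46. Smad6 was most like Jag2 (r = 0.64), Bicra (r = 0.64) and P2ry2 (r = 0.63). The points of each relation share the library, its depth and its cell makeup.

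Of 70 other genes listed for the pathway, 48 were measured, and between HT and PBS mice 12 of them rose and 4 fell, 33.3% of the list against 32.9% of all genes. Between HT and LT mice 7 rose and 4 fell, 22.9% of the list against 20.4% of all genes. In LT, 2wk and 1wk mice against PBS mice 0 were called by limma, where 0.636%, 0.0795% and 0.525% of all genes were, and 10, 4 and 9 had an unadjusted p under 0.05. With library weights limma called 0 in LT, 1 in 2wk and 4 in 1wk mice, a setting in which it called 2.29%, 1.92% and 5.80% of all genes. Without HT mice C48, C54 and C55, 5 rose and 2 fell against PBS mice, and 1 rose and 1 fell against LT mice, where 16.1% and 3.18% of all genes were called.

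Other ligands were sparsely measured, with values for 2 of 12. Bmp2, a ligand known for bone formation, fell in HT mice against LT mice (-0.92, adjusted p = 0.00274, limma), at 5.10 to 28.7 against 15.3 to 45.0. A single read corresponds to a value of 1.58 to 2.87 in HT and 1.68 to 3.37 in LT libraries, so Bmp2 rested on few reads. It did not pass with library weights or without HT mice C48, C54 and C55. LT mice had the highest mean of the 5 groups, 29.6.

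Of the 9 measured other receptors and co-receptors, 2 rose and 2 fell in HT mice, where 16.5% of all genes rose and 16.5% fell. Acvr2a, a type II receptor shared by activins and BMPs, had 615 to 900 in HT mice, against 282 to 543 in PBS mice, and these ranges did not overlap (0.70, adjusted p = 0.000195, limma). Eng, a co-receptor of endothelium, had 427 to 649, against 309 to 469 (0.42, adjusted p = 0.00633, limma). Both also rose against LT mice, Acvr2a by 0.49 (adjusted p = 0.00973, limma) and Eng by 0.34 (adjusted p = 0.0358, limma). Neither passed against LT mice with library weights or without HT mice C48, C54 and C55. Eng passed in neither comparison with the endothelial covariate, which cannot test a gene of endothelium apart from those markers. The members that fell were both repulsive guidance molecules, co-receptors for BMP ligands. Hjv, hemojuvelin, the partner of BMP6 in liver iron sensing, had 3193 to 9865 in HT mice, against 7373 to 11640 in PBS mice (-0.44, adjusted p = 0.0228, limma). Rgma had 115 to 425, against 278 to 481 (-0.65, adjusted p = 0.0134, limma). Neither passed against PBS mice with library weights or without HT mice C48, C54 and C55. Hjv was also called as lower against LT mice, and Rgma was not. That call ended with library weights, with thinned libraries, with the covariate and without these mice.

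Both measured other Smads rose in HT mice against PBS mice, where 16.5% of all genes rose. Smad4, the partner shared by all activated Smads, had 985 to 1674 in HT mice, against 730 to 986 in PBS mice (0.43, adjusted p = 0.000887, limma). Smad7, an inhibitory Smad, had 70.2 to 229, against 46.7 to 127 (0.59, adjusted p = 0.0455, limma). Smad4 rose against LT mice as well (0.30, adjusted p = 0.0232, limma), and Smad7 did not pass there (adjusted p = 0.189, limma). Smad4 passed against PBS mice with library weights, with thinned libraries, with the endothelial covariate and without HT mice C48, C54 and C55, and Smad7 passed in none of these 4 settings. Of these settings, Smad4 passed against LT mice with thinned libraries alone.

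Of the 10 measured intracellular regulators of BMP Smads, 3 rose and 1 fell in HT mice, where 16.5% of all genes rose and 16.5% fell. The one that fell, Tob1, an antiproliferative protein that binds Smads, had 837 to 2178 in HT mice, against 2018 to 3166 in PBS mice (-0.92, adjusted p = 2.15e-05, limma). Against LT mice Tob1 fell by 0.90 on the log2 scale (adjusted p = 0.000151, limma). Lemd3, an inner nuclear membrane protein that binds receptor-activated Smads, rose against PBS mice (0.44, adjusted p = 0.00617) and LT mice (0.41, adjusted p = 0.0168, limma). Nedd4l, a ubiquitin ligase for activated Smads, rose by 0.45 (adjusted p = 0.00142, limma), and Rnf111, a ubiquitin ligase that removes Smad7, by 0.26 (adjusted p = 0.0473, limma), both against PBS mice. Without HT mice C48, C54 and C55 Lemd3 passed in neither comparison, and with library weights it did not pass against LT mice. Rnf111 passed neither in these settings nor with thinned libraries or the covariate. Of 11 measured extracellular antagonists, 0 were called by limma in HT against PBS mice, where 32.9% of all genes were, and 1 had an unadjusted p under 0.05. With library weights 0 were called as well, where 23.6% of all genes were. With the endothelial covariate 1, Nbl1, was called as lower. Nbl1, which encodes a secreted protein of the DAN family, also fell against LT mice (-0.51, adjusted p = 0.0163, limma), and did not pass there with library weights, with thinned libraries or without HT mice C48, C54 and C55.

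Of the 7 measured other genes known to respond to BMP Smads, 4 rose in HT mice and 0 fell, where 16.5% of all genes rose and 32.9% were called in either direction, with a median fitted difference of 0.52 against 0.00 over all genes. Tmem100, an endothelial gene induced through the receptor ALK1, had 133 to 872 in HT mice, against 86.4 to 143 in PBS mice (1.37, adjusted p = 0.000422, limma). It rose against LT mice too (1.01, adjusted p = 0.0111, limma), and was the only one of the 4 that passed with library weights, without HT mice C48, C54 and C55 or with the endothelial covariate. Atoh8, a helix-loop-helix factor, had a median of 75.8 and a highest value of 342 in HT mice, against 58.3 and 98.0 in PBS mice (0.88, adjusted p = 0.0143, limma). Hey1, which also answers to Notch, rose by 0.52 (adjusted p = 0.0252, limma). Fbxo30, the muscle ubiquitin ligase MUSA1, had 109 to 645 in HT mice, against 116 to 204 in PBS mice (0.60, adjusted p = 0.0213, limma), and is known in muscle as a gene that BMP signaling holds down. Id4, the remaining Id gene, had 1.59 to 15.3 in HT mice, against 3.26 to 9.44 in PBS mice, and did not pass (adjusted p = 0.360, limma). Its HT values rested on few reads, as 1 read corresponds to 1.58 to 2.87 in HT libraries.

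Of the 7 helix-loop-helix partners of the Id proteins, 1 rose and 1 fell in HT mice, where 16.5% of all genes rose and 16.5% fell. Myf6, the myogenic factor of mature fibres, had 1298 to 4243 in HT mice, against 1186 to 1389 in PBS mice (0.66, adjusted p = 0.00383, limma). Myod1, a myogenic factor of activated satellite cells and fast fibres, had 66.3 to 351, against 183 to 342 (-0.64, adjusted p = 0.0246, limma). Tcf3, the E protein E2A, was not called against PBS mice (adjusted p = 0.256, limma) and rose against LT mice (0.45, adjusted p = 0.0123, limma). Without HT mice C48, C54 and C55 Myf6 did not pass against PBS mice, whereas Myod1 did. Tcf3 did not pass against LT mice without these mice, with library weights, with thinned libraries or with the endothelial covariate.

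**Figure D4:**
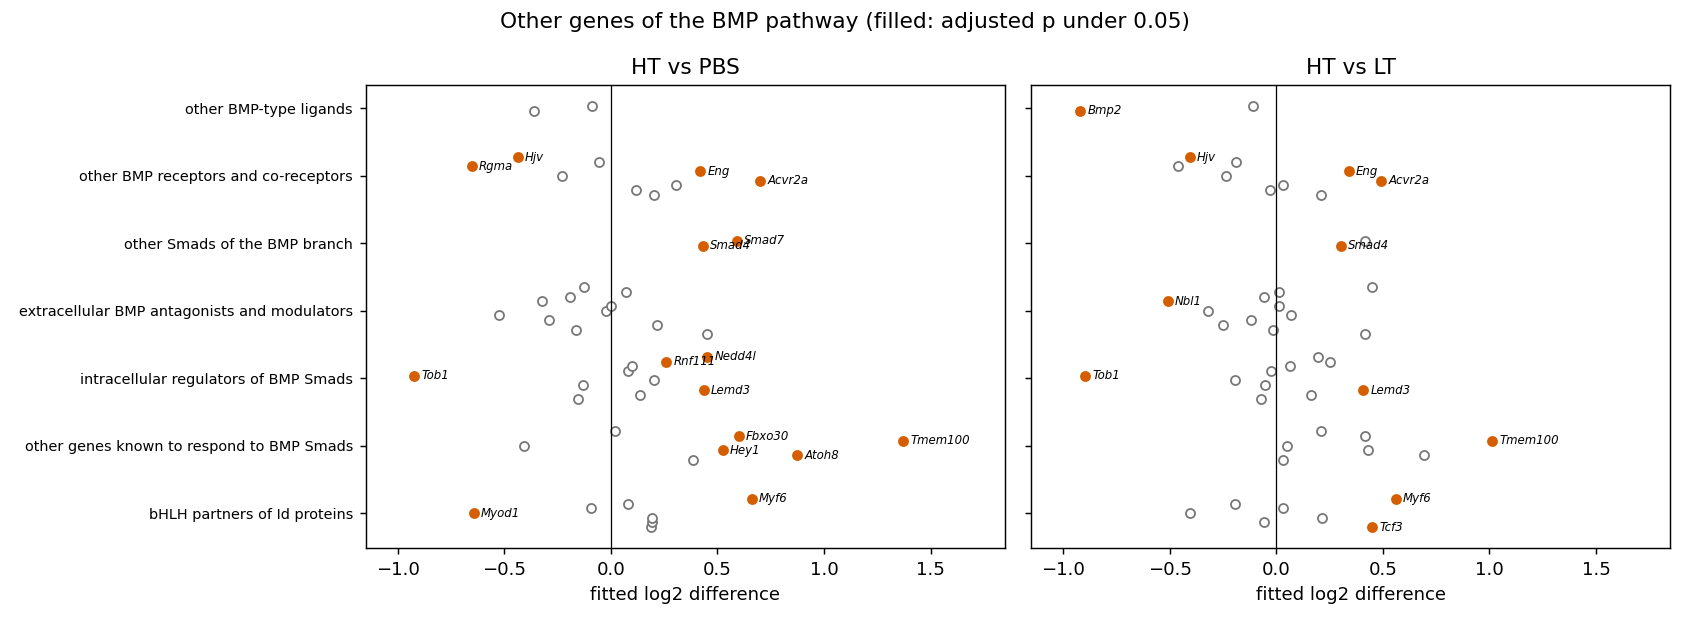
Fitted log2 difference (horizontal axis) of the 48 measured other pathway genes, 1 point per gene in the row of its list, for HT vs PBS (left) and HT vs LT (right), with filled and named points where the adjusted p was under 0.05. Called genes lie on both sides of 0 in each panel, from Tob1 at -0.92 to Tmem100 at 1.37 in HT vs PBS.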

How the data were processed

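Gastrocnemius RNA of 40 mice was sequenced as 50-base single reads from a stranded mRNA library. According to the paper's methods and the submitters' processing notes, reads were aligned with STAR 2.7.8a and counted against RefSeq in Partek Flow, with at least 30 reads per gene, and normalized with DESeq2's median ratio. The notes name both mm10 and mm39, and the coordinates in the table matched mm39. The table's values are this normalized signal, deposited by the authors as decimal numbers (99.6% of 502920 values were not whole, and 0 were at 0), so no count model was used. Columns of the authors' own comparisons were not used, and 0 value columns belonged to no sample.

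Groups came from the labels, which number no replicates, and each library is a separate mouse. The main fit was limma 3.58.1 (R 4.3.3) on log2(value + 1) with a trended prior, all 5 groups in 1 model, on all 12573 genes. The 5 comparisons were HT, LT, 2wk and 1wk vs PBS, and HT vs LT. In data simulated for HT vs PBS on 12573 genes, it called 95 of 100 genes changed by 2-fold, 69 of 100 changed by 1.5-fold and 12 of 12373 unchanged genes. The simulation gave all genes and groups 1 common spread beyond read sampling (dispersion 0.03). It does not show the recovery for members as variable as Id1, or with HT libraries of unequal weight. Depth was estimated from the steps between low values. Between 81.4 and 89.2% of these values, depending on the library, came within 0.1 of whole reads. Intervals of fitted differences are 95%. Relations among mice of 1 group used exact permutation (scipy 1.17.1). Alternatives were other pseudocounts, a filter on low means, separate fits, library weights, other scalings, thinning to 3486550 reads, a fit without trend, an endothelial covariate, and leaving out libraries. The members, lists and alternatives were chosen with earlier results of these data known. By rule all 10 members were named, with up to 4 called genes of the largest difference in each list and the 3 genes most like Id1, Id2, Id3 and Smad6. RefSeq promoter windows came from GRCm38.p6, and gene positions from the table.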

Additional observations from a re-analysis of the deposited data

Results flagged for a closer look

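Bmp6 differed between HT and LT mice by -0.8861 on the log2 scale (adjusted p = 0.00138, limma), which is the test of whether HT and LT mice departed from PBS mice to the same degree. In each of the 50 sets of 8 values of 1 gene in 1 group, the highest and the lowest mouse were compared with the rest of their group by Dixon's ratio, which chance passes in about 1 of 20 sets. In 2 sets, both at 1wk, 1 mouse stood apart. Id1 was 340.1 in 1wk mouse C14, against 216 in the next mouse, a gap of 0.677 of the group's range. Id2 was 103.4 in 1wk mouse C17, against 55.1 in the next mouse, a gap of 0.588 of the range.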

How the results depend on the processing

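No paired analysis was possible because the labels number no replicates and each mouse gave 1 library. Of the members, 4 were higher in HT than in PBS mice, and 2 in a fit of these groups alone, 2 with libraries thinned to the shallowest and 0 with the endothelial covariate. The 1 lower member, Bmp6, gave 0 with thinned libraries. The 1 higher in LT mice gave 0 in a fit of LT and PBS mice alone, 0 with thinned libraries and 0 with the covariate. Over all genes, 0.636% called in LT vs PBS became 0.628%, 0.453% and 0.255%, in that order. In 2wk mice, 0 became 2 with library weights, where 0.0795% of all genes became 1.92%. In 1wk mice, 0 became 1 in a fit of 1wk and PBS mice alone and with library weights. The same held when scaled to library totals and without HT mice C48, C54 and C55. Over all genes, 0.525% called at 1wk became 0.732%, 5.80%, 0.406% and 1.07%, in that order. Leaving out each of the 40 libraries in turn gave 2 to 4 higher in HT vs PBS, 0 to 1 in LT vs PBS, 0 to 1 in 1wk vs PBS and 0 to 2 in HT vs LT. By medians instead of means, 6 of 10 genes kept their highest and lowest group. For the other pathway genes, alternatives were chosen after seeing the data. In HT vs PBS, 12 higher became 7 with library weights, 6 with the covariate and 5 without the 3 HT mice. There 4 lower became 2 with weights and 2 without these mice. Over all genes, 32.9% called became 23.6% with weights, 14.9% with the covariate and 16.1% without these mice. In HT vs LT, 7 higher became 1 with weights, 4 with the covariate and 1 without the 3 mice. There 4 lower became 1 with weights, 2 with thinned libraries and 1 without the 3 mice. Over all genes, 20.4% called became 2.86% with weights, 13.3% with the covariate, 12.4% with thinned libraries and 3.18% without the 3 mice. The cause was not tested. Every difference that changed sign belonged to a member not called in that comparison.

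With quantile normalization, the fitted difference was -0.021 for Bmpr1a in HT vs PBS, and 0.022 for Bmpr1a and -0.0018 for Id1 in 1wk vs PBS. With thinned libraries it was -0.011 for Bmpr1a and -0.33 for Id2 in HT vs PBS, -0.027 for Bmpr1a in LT vs PBS, -0.39 for Id2 in 2wk vs PBS, -0.045 for Smad6, -0.0796 for Id1 and -0.032 for Id2 in 1wk vs PBS, and 0.016 for Bmpr1a in HT vs LT. Without HT mice C48, C54 and C55 it was 0.042 for Smad6 and -0.066 for Id1 in HT vs PBS, and 0.095 for Bmp4, 0.14 for Bmpr1a, 0.026 for Bmpr2 and -0.061 for Id1 in HT vs LT. With library weights it was -0.056 for Id1 in HT vs PBS, 0.019 for Bmpr1a in 1wk vs PBS, and 0.059 for Bmp4, 0.097 for Bmpr1a, 0.00602 for Bmpr2 and -0.042 for Id1 in HT vs LT. With the endothelial covariate it was -0.41 for Id1 and -0.32 for Id3 in HT vs PBS, -0.035 for Bmp6 in LT vs PBS, -0.30 for Bmp6, -0.035 for Smad5, -0.20 for Id1 and -0.23 for Id3 in 2wk vs PBS, -0.15 for Bmp6, -0.069 for Smad5, -0.27 for Id1 and -0.21 for Id3 in 1wk vs PBS, and 0.0083 for Bmpr1a, 0.0031 for Bmpr2, -0.19 for Id1 and -0.058 for Id3 in HT vs LT. Scaled to library totals it was 0.015 for Id1 in LT vs PBS, 0.078 for Bmpr1a in 1wk vs PBS, and 0.050 for Bmpr1a and 0.0054 for Bmpr2 in HT vs LT. Leaving out 1 library in turn, the range was -0.021 to 0.10 for Bmpr1a, -0.048 to 0.19 for Id1 and -0.019 to 0.18 for Id2 in HT vs PBS, -0.015 to 0.080 for Bmpr1a, -0.14 to 0.12 for Id1 and -0.16 to 0.00941 for Id3 in LT vs PBS, -0.035 to 0.16 for Bmp6, -0.015 to 0.23 for Id1 and -0.039 to 0.081 for Id3 in 2wk vs PBS, -0.071 to 0.042 for Bmpr1a, -0.12 to 0.12 for Id1 and -0.039 to 0.098 for Id3 in 1wk vs PBS, -0.14 to 0.016 for Bmp4, -0.055 to 0.071 for Bmpr1a and -0.030 to 0.21 for Id1 in HT vs LT.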
